A study of Rattus norvegicus with 6 samples.

Results

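The miR-181 family of rat plasma exosomes was examined here through its 4 mature 5p miRNAs, rno-miR-181a-5p, rno-miR-181b-5p, rno-miR-181c-5p and rno-miR-181d-5p, which were taken by name from a table of 763 rat miRNAs. All 4 had counts in every library and all 4 passed the filter on low counts, as did 404 miRNAs in total. Small RNA was sequenced from exosomes in the plasma of male Sprague-Dawley rats aged 7 to 8 weeks. The RIPC rats (R-exo, n = 3 libraries) had received remote ischemic preconditioning under anesthesia, in which elastic bands closed off both hind limbs for 4 cycles of 5 min of ischemia and 5 min of reperfusion. The control rats (C-exo, n = 3 libraries) had not, and blood was drawn from the abdominal aorta of both groups after 48 h, the late phase of the protection that RIPC gives. Exosomes are small vesicles shed by cells, and they were pelleted from plasma by differential centrifugation. The sources used here do not say whether a library came from 1 rat or from several, so the p-values measure only the spread between these libraries. In pooled vesicles, fewer vesicles from a cell type and less of a miRNA per vesicle cannot be told apart.

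miRNAs guide Argonaute proteins to target transcripts mainly through the seed, the bases near the 5′ end that pair with the target. A precursor hairpin holds a 5p arm and a 3p arm, and usually one of them is retained. The miR-181 family is transcribed from bicistronic loci, an a hairpin followed by a b hairpin or a c hairpin followed by a d hairpin. miR-181a is known for setting the sensitivity of the T cell receptor during thymocyte development. miR-181b is known for restraining NF-kB signaling in the inflamed endothelium by targeting an importin. miR-181c is known for entering heart mitochondria and repressing a subunit of cytochrome c oxidase. miR-181d is known for repressing MGMT, a DNA repair gene, in glioblastoma.

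The mature sequences are shown because they define the family and set how well a read can be assigned to a member. They are RefSeq sequences with GRCr8 coordinates, are written 5′ to 3′, and carry the seed (bases 2 to 8) in capitals.
miR-181a-5p: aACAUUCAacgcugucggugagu
miR-181b-5p: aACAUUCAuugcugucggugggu
miR-181c-5p: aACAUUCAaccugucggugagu
miR-181d-5p: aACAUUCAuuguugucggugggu
All 4 share 1 seed, ACAUUCA, and no other of the 693 mature rat names in the RefSeq table holds it. With positions counted from the 5′ end, miR-181a-5p and miR-181b-5p differ by A9U, C10U and A21G. miR-181b-5p and miR-181d-5p differ by C12U alone, although they belong to different clusters. miR-181c-5p is 22 bases long and equals the 23 bases of miR-181a-5p without the base at position 11. By sequence the members therefore form the pairs a with c and b with d, which cut across the a/b and c/d clusters.

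The family has 6 hairpins on 3 chromosomes of GRCr8, all on the plus strand. The 5p sequence of Mir181a-1 is at chr13:52037081-52037103 and that of Mir181b1 at chr13:52037263-52037285, both within the lncRNA gene LOC108352541 and next to Ptprc, which encodes the leukocyte surface phosphatase CD45. Mir3570 lies on the opposite strand of Mir181a-1, and its mature miRNA had 0 counts in every library. Mir181a2 carries the same miR-181a-5p at chr3:43025601-43025623, and it lies with Mir181b2 within Nr6a1, a nuclear receptor gene, and the lncRNA gene LOC120101539. The c/d cluster lies outside other annotated genes and next to Nanos3, with miR-181c-5p at chr19:40888314-40888335 and miR-181d-5p at chr19:40888484-40888506. Counts of mature miR-181a-5p and miR-181b-5p cannot be divided between their 2 loci each, so the a/b values sum over both a/b clusters.

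The libraries held 5484209 to 7531737 miRNA counts, and 3 counts corresponded to 0.398 to 0.547 RPM (reads scaled to library size). Levels below are in CPM, the same unit after TMM normalization, a scaling for library composition. The 7 plasma marker miRNAs that were listed all had counts, although miR-16-5p, usually abundant in blood, was at 73.5 to 854 CPM. Of these markers 1, miR-126a-3p, was higher in R-exo at an unadjusted p under 0.05, against 9.41% of all tested miRNAs in either direction, and 0 after adjustment in edgeR's test. The markers had 4 positive and 3 negative log2 fold changes, with a median of 0.37. C-exo 3 stood apart from its group. Across miRNAs its counts correlated with those of the R-exo libraries at Spearman rho 0.965 to 0.983 and with those of C-exo 1 and C-exo 2 at 0.902 to 0.931. The fold changes of the members and of their tested 3p arms are given with and without it.

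The family was an abundant part of the exosomal miRNAs, with 1.38% to 2.06% of all counts per library. The summed level of the 4 members in C-exo was 18255 ± 3399 CPM (SD, n = 3), and in R-exo it was 17551 ± 2418 CPM (SD, n = 3). The order of levels was a, b, d and c in each of the 6 libraries, and the ranges of neighbours in this order did not overlap. As mature miRNAs of nearly equal length were counted, no further scaling by length was needed for this order. The mean level over the 6 libraries was 5.69-fold higher for miR-181a-5p than for miR-181b-5p, 5.34-fold higher for miR-181b-5p than for miR-181d-5p, and 1216-fold higher for miR-181a-5p than for miR-181c-5p. miR-181a-5p made up 80.1% to 85.1% of the family counts and miR-181b-5p 12.2% to 17.4%. miR-181d-5p made up 1.51% to 5.70% and miR-181c-5p 0.036% to 0.10%. The c/d cluster was thus represented almost entirely by miR-181d-5p.

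**Figure D1:**
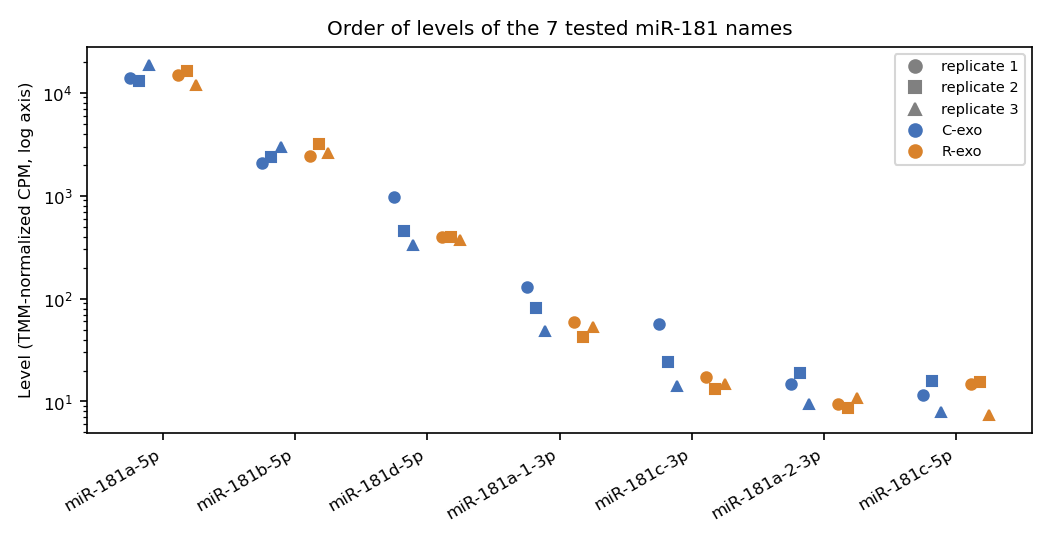
Levels (TMM-normalized CPM, log axis) of the 7 miR-181 names that passed the filter on low counts, 1 point per library, with colour for the group and shape for the replicate number. The 5p members separate into miR-181a-5p at 12027 to 18815 CPM, miR-181b-5p at 2072 to 3173 CPM, miR-181d-5p at 333 to 965 CPM and miR-181c-5p at 7.39 to 15.7 CPM, and C-exo and R-exo points overlap for every name.

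rno-miR-181a-5p, the T cell receptor regulator, ranked 14 to 23 by count in a library. Its level was 13876, 12895 and 18815 CPM in C-exo 1, 2 and 3 and 14959, 16242 and 12027 CPM in R-exo 1, 2 and 3. The highest library belonged to C-exo and the lowest to R-exo, and the groups overlapped. The log2 fold change of R-exo over C-exo was -0.077 (standard error 0.39, 95% interval -0.94 to 0.79, adjusted p = 0.94 in the quasi-likelihood test of edgeR, adjusted by Benjamini-Hochberg over the 404 miRNAs). The median log2 fold change of all tested miRNAs was -0.046. With library size as the only scaling the value for miR-181a-5p was 0.086, beside a median of 0.10, so its sign depends on the scaling. It also turned without C-exo 3, to 0.12.

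rno-miR-181b-5p, the endothelial NF-kB regulator, ranked 41 to 47. Its level was 2072, 2356 and 2962 CPM in C-exo 1, 2 and 3 and 2437, 3173 and 2608 CPM in R-exo 1, 2 and 3. The highest library was R-exo 2, but C-exo 3 lay above R-exo 1 and R-exo 3. The log2 fold change was 0.15 (standard error 0.40, 95% interval -0.75 to 1.05, adjusted p = 0.86 in the same edgeR test). Without C-exo 1 it was -0.0099, and without C-exo 3 it was 0.32.

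rno-miR-181c-5p, the mitochondrial member, was the rarest and ranked 255 to 296. It had 52, 123 and 56 counts in C-exo 1, 2 and 3 and 120, 108 and 56 counts in R-exo 1, 2 and 3. Scaled for depth, the levels were 11.7, 15.7 and 7.97 CPM in C-exo, and the R-exo libraries were at 14.8, 15.5 and 7.39 CPM. Exact Poisson 95% intervals of the counts, scaled in the same way and covering counting error only, were 8.70 to 15.3 CPM in C-exo 1, 13.1 to 18.8 CPM in C-exo 2 and 6.02 to 10.3 CPM in C-exo 3. In R-exo 1, 2 and 3 they were 12.3 to 17.7, 12.7 to 18.7 and 5.58 to 9.59 CPM. The interval of replicate 3 thus lay below that of replicate 2 in both groups, while those of C-exo 1 and C-exo 2 overlapped. The lowest library of each group was replicate 3, and the means were 11.8 ± 3.89 and 12.6 ± 4.49 CPM (SD, n = 3). The log2 fold change was 0.090 (standard error 0.51, 95% interval -1.06 to 1.24, adjusted p = 0.95 in the same edgeR test), with a sign that was not stable. It was -0.012 under upper quartile scaling, and it was also negative without C-exo 1 (-0.026), without C-exo 3 (-0.12), without R-exo 1 (-0.0036) and without R-exo 2 (-0.13).

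rno-miR-181d-5p ranked 68 to 110 and was the member that varied most within C-exo and least within R-exo. Its level was 965, 454 and 333 CPM in C-exo 1, 2 and 3 and 398, 401 and 372 CPM in R-exo 1, 2 and 3. The R-exo libraries lay close together, with a coefficient of variation of 4.00%, and fell between C-exo 2 and C-exo 3, whereas C-exo spread by 57.4%. For comparison, the coefficients of variation in C-exo and R-exo were 18.4% and 14.1% for miR-181b-5p and 33.0% and 35.8% for miR-181c-5p. The log2 fold change of miR-181d-5p was -0.58 (standard error 0.49, 95% interval -1.68 to 0.52, adjusted p = 0.55 in the same edgeR test). Without C-exo 1 it was -0.095, and without C-exo 3 it was -0.85 (adjusted p = 0.12 in edgeR's test on the remaining libraries).

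**Figure D2:**
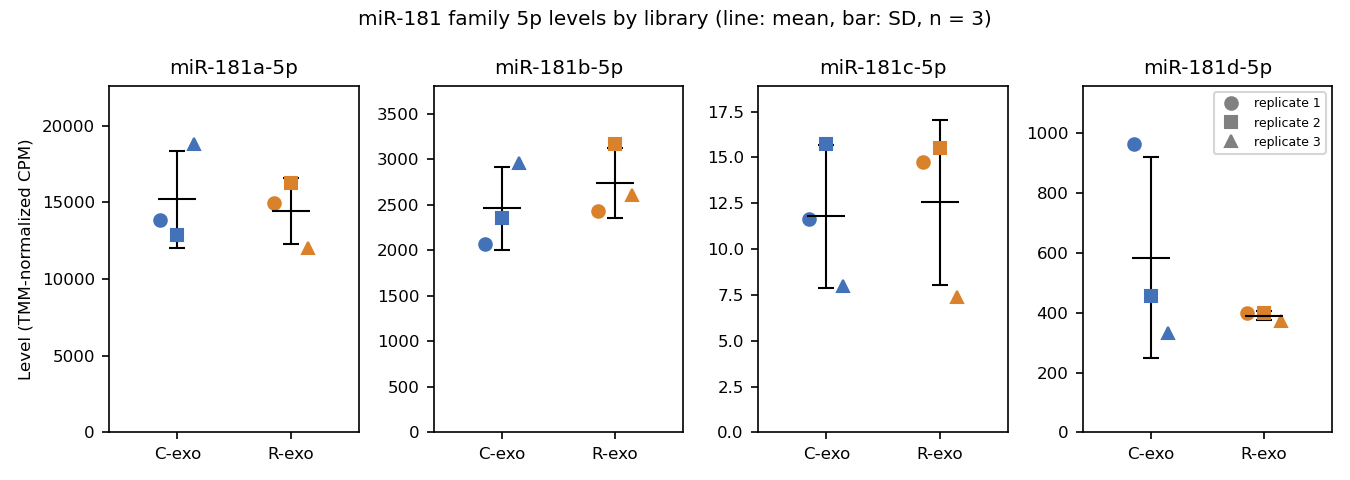
Level of each 5p member (TMM-normalized CPM, linear axes from 0 that differ between panels) by group, with 1 point per library, the mean as a line and the SD as a bar (n = 3). The groups overlap in all 4 panels, and the highest point of miR-181d-5p, 965 CPM, is C-exo 1.

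Of the 4 members, 0 had an adjusted p under 0.05 and 0 had an unadjusted p under 0.05 in edgeR's test. DESeq2 and limma-voom also gave 0 adjusted calls over the table. Over all 404 tested miRNAs edgeR called 0% at the adjusted p, and 38 miRNAs (9.41%) at a fold over 2 with an unadjusted p under 0.05. These 38 were 1.98% of the tested miRNAs in the direction of higher and 7.43% in that of lower levels in R-exo. This split depends on the scaling and the test, since 18 of 33 calls were higher in R-exo with library size scaling and 27 of 49 with limma-voom, and with 1 library left out the number of calls ranged from 15 to 182 (182 without C-exo 3). Groups without overlap were seen for 0 of the 4 members, against 12.9% of all tested miRNAs (4.95% higher and 7.92% lower in R-exo). An exact two-sided permutation test of the log2 CPM gave p = 0.9 for miR-181a-5p, 0.4 for miR-181b-5p, 1 for miR-181c-5p and 0.5 for miR-181d-5p, where 0.1 is the smallest p that 3 against 3 libraries can give. The 95% intervals above leave room for differences in either direction. On the log2 scale they reach 1.05 for miR-181b-5p, -1.06 and 1.24 for miR-181c-5p, and -1.68 and 0.52 for miR-181d-5p. Without C-exo 3, edgeR called 31.3% of 422 miRNAs at an adjusted p under 0.05, and the adjusted p of the 5p members was then 0.12 or higher.

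**Figure D3:**
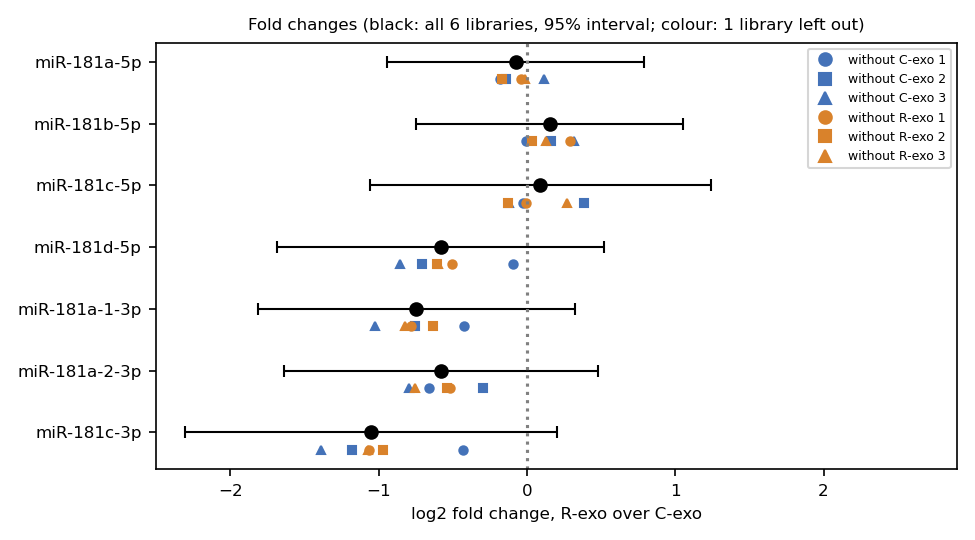
R-exo over C-exo as log2 fold change from edgeR for the 4 5p members and the 3 tested 3p arms, with black points and 95% intervals for all 6 libraries and coloured points for the value with 1 library left out. The intervals of all 7 include 0, and the values of miR-181d-5p and miR-181c-3p move most, to -0.095 and -0.43 without C-exo 1 and to -0.85 and -1.39 without C-exo 3.

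The a/b and c/d clusters were next compared within each library, where a ratio of counts does not depend on scaling. The summed a/b counts exceeded the summed c/d counts by 16.3-fold, 32.4-fold and 63.8-fold in C-exo 1, 2 and 3 and by 42.2-fold, 46.7-fold and 38.6-fold in R-exo 1, 2 and 3. The R-exo libraries lay within the range of the C-exo libraries, whose lowest and highest ratios were those of C-exo 1 and C-exo 3. On the log2 scale the ratio was 5.02 ± 0.98 (SD, n = 3) in C-exo and 5.40 ± 0.14 (SD, n = 3) in R-exo, a difference of 0.39 that was smaller than the spread between the C-exo libraries. It was -0.10 without C-exo 1 and 0.88 without C-exo 3. Since miR-181d-5p carries nearly all c/d counts, the ratio of miR-181a-5p to miR-181c-5p alone was also taken, and it shifted by -0.14.

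The 6 pairwise ratios between members gave the same picture. The log2 ratio of miR-181b-5p to miR-181d-5p, the pair that differ by 1 base, was 1.10, 2.37 and 3.15 in C-exo 1, 2 and 3 and 2.62, 2.99 and 2.81 in R-exo 1, 2 and 3. miR-181d-5p thus reached 46.6% of the miR-181b-5p count in C-exo 1, against 11.3% to 19.3% in the other libraries. Within the a/b cluster the log2 ratio of miR-181a-5p to miR-181b-5p was narrower, at 2.74, 2.45 and 2.67 in C-exo and 2.62, 2.36 and 2.21 in R-exo. Its difference between groups, -0.23, had the smallest p of the 6 (exact two-sided permutation p = 0.2, 0.8 after Benjamini-Hochberg adjustment over the 6 ratios). Within the c/d cluster the log2 ratio of miR-181c-5p to miR-181d-5p was -5.54 ± 0.77 in C-exo and -5.03 ± 0.54 in R-exo (SD, n = 3). All 6 ratios overlapped between the groups. Without C-exo 3 the ratios of miR-181a-5p and of miR-181b-5p to miR-181d-5p no longer overlapped, and 2 against 3 libraries is too few for a call by permutation.

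**Figure D4:**
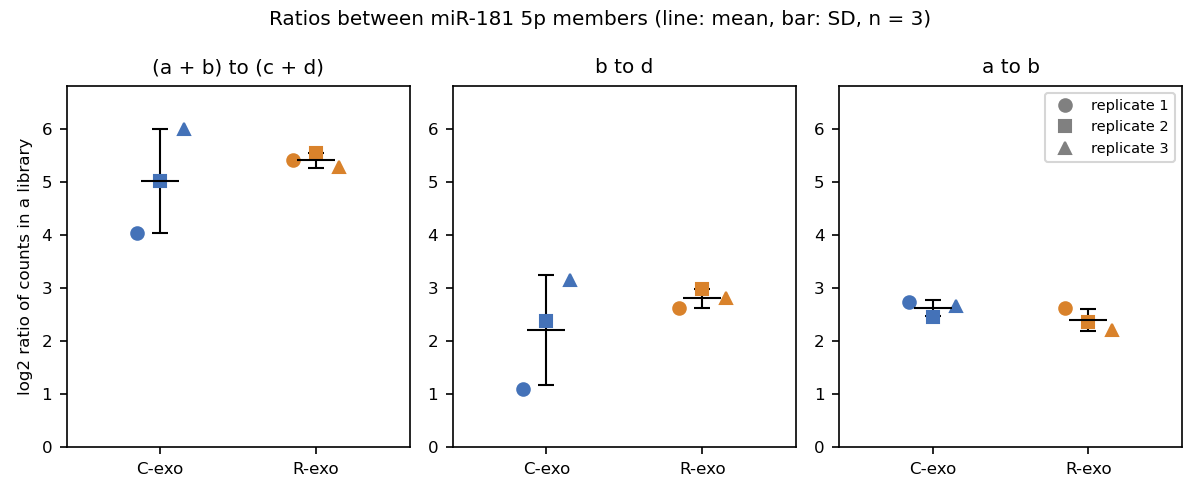
Log2 ratios of counts within a library for the a/b to the c/d cluster, for miR-181b-5p to miR-181d-5p and for miR-181a-5p to miR-181b-5p, with 1 point per library, the mean as a line and the SD as a bar (n = 3). In the panels that contain miR-181d-5p the C-exo points span the R-exo points, upward from 4.03 for the clusters, and the ratio of a to b lies between 2.21 and 2.74 in all libraries.

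The 3p arms separated miR-181c from the rest of the family. Reads of the miR-181a hairpins came from the 5p arm at 98.97% to 99.69%, those of miR-181b at 99.94% to 99.98% and those of miR-181d at 99.79% to 100%. For miR-181c the share on the 5p arm was 17.2%, 39.4% and 35.9% in C-exo 1, 2 and 3 and 45.8%, 53.7% and 33.5% in R-exo 1, 2 and 3. The Wilson 95% interval was 13.4% to 21.9% in C-exo 1, the lowest library, and 46.8% to 60.5% in R-exo 2, the highest. miR-181c-3p thus exceeded miR-181c-5p in every library except R-exo 2. A 3p arm above its 5p arm was common in these exosomes, at 54.0% of the 176 miRNA names with both arms and at least 100 counts. The mean share of the miR-181c 5p arm was 30.8% ± 11.9 in C-exo and 44.4% ± 10.2 in R-exo (SD, n = 3), and the groups overlapped (exact two-sided permutation p = 0.3).

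**Figure D5:**
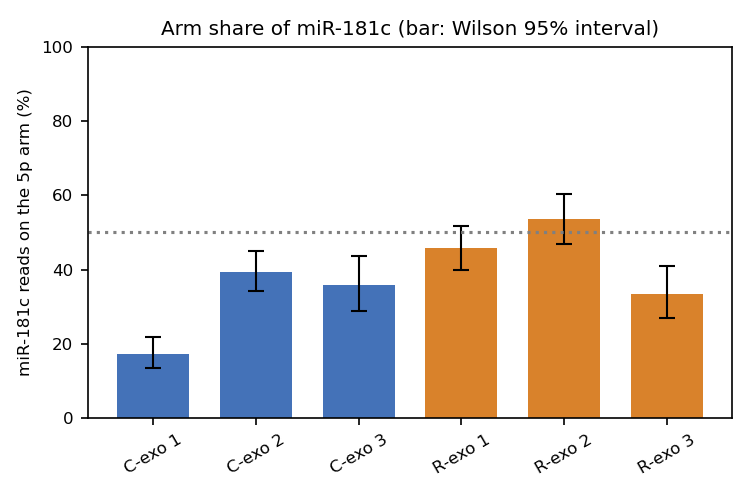
Share of miR-181c reads on the 5p arm (%) in each library, with Wilson 95% intervals that cover counting error only and a dotted line at equal arms. The share rises above the line only in R-exo 2 (53.7%), and C-exo 1 has the lowest share (17.2%).

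The hairpins of the c/d cluster are shown with their mature arms in capitals, since they differ in arm use.
Mir181c (chr19:40888291-40888396, plus strand): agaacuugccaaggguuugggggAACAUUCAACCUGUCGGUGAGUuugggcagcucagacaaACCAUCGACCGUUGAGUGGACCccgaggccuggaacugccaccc
Mir181d (chr19:40888474-40888556, plus strand): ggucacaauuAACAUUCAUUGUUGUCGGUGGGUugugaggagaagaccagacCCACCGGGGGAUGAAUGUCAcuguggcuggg
miR-181c-3p also resembles the 3p arm of Mir181a-1. The first 15 bases of these arms are identical and the bases that differ, U16G and U19G from miR-181a-1-3p to miR-181c-3p, are in capitals.
miR-181a-1-3p: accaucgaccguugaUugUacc
miR-181c-3p: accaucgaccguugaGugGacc

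Of the 6 listed 3p arms, 3 passed the filter on low counts, and 0 of these 3 had an unadjusted or adjusted p under 0.05, against 9.41% of all tested miRNAs at the unadjusted and 0% at the adjusted p. miR-181c-3p was at 56.0, 24.2 and 14.2 CPM in C-exo 1, 2 and 3 and at 17.5, 13.4 and 14.6 CPM in R-exo 1, 2 and 3. As for miR-181d-5p, its cluster partner, C-exo 1 was the highest library and the R-exo libraries lay close together. R-exo over C-exo gave a log2 fold change of -1.05 with a standard error of 0.56 (adjusted p = 0.47 in the edgeR test). Without C-exo 3 it was -1.39 (adjusted p = 0.036), in a fit that called 14% of the tested miRNAs as lower in R-exo, and without C-exo 1 it was -0.43. miR-181a-1-3p was at 130, 81.8 and 48.4 CPM in C-exo, and the R-exo libraries were at 59.5, 42.2 and 53.0 CPM, with C-exo 1 again the highest (log2 fold change -0.75, adjusted p = 0.51 in edgeR's test). Without C-exo 3 its log2 fold change was -1.02, with an unadjusted p of 0.027 and an adjusted p of 0.072 in edgeR's test, and without C-exo 1 it was -0.42. miR-181a-2-3p was at 8.61 to 18.9 CPM (log2 fold change -0.58, adjusted p = 0.54 in edgeR's test, -0.80 without C-exo 3 and -0.30 without C-exo 2). The other 3p arms, of miR-181b and miR-181d, had 0 to 11 counts in a library and were not tested.

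The miRNAs whose log2 levels followed each member most closely over the 6 libraries were listed by Pearson r, as a description without a test, since all miRNAs of a library share its depth and composition. For miR-181a-5p they were miR-204-5p (r = 0.88), miR-148a-3p (0.84) and miR-451-5p (0.83), and all 3 were above their other C-exo levels in C-exo 3. For miR-181b-5p they were miR-29b-3p (r = 0.99), miR-29c-3p (0.98) and miR-27b-3p (0.96). The level of miR-29b-3p was lowest in C-exo 1 (60.5 CPM) and highest in R-exo 2 (554 CPM), a far wider range than that of miR-181b-5p. For miR-181c-5p they were miR-490-3p (r = 0.95), miR-490-5p (0.91) and miR-34c-3p (0.90), all under 8 CPM in every library. For miR-181d-5p they were miR-25-5p (r = 0.997), miR-330-5p (0.99) and miR-3064-5p (0.98), each highest in C-exo 1. miR-330-5p, for example, was at 194 CPM in C-exo 1 and at 45.1 to 65.3 CPM elsewhere.

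miRNAs that share a known setting with the members were described from lists, beside the same edgeR test. Of 6 leukocyte miRNAs, the setting of miR-181a, 0 passed an unadjusted p under 0.05, against 9.41% of all tested miRNAs. The list had 5 positive and 1 negative log2 fold changes, from -0.36 to 1.05 with a median of 0.46. The smallest p was that of miR-142-3p, a miRNA of blood cells, which had 404 ± 131 CPM in the C-exo and 789 ± 227 CPM in the R-exo libraries (SD, n = 3, adjusted p = 0.47 in edgeR's test). Of 9 endothelial and NF-kB regulating miRNAs, the setting of miR-181b, 1 passed at an unadjusted p, against 9.41% of all tested miRNAs, and 0 after adjustment. The list had 6 positive and 3 negative log2 fold changes, with a median of 0.19. The one that passed was the endothelial miR-126a-3p, at 4632, 7147 and 15885 CPM in C-exo, and the R-exo libraries were at 20080, 19837 and 30019 CPM (log2 fold change 1.34, adjusted p = 0.46 in edgeR's test). Its groups did not overlap, while those of miR-181b-5p did. Of 5 miRNAs found in heart mitochondria, the setting of miR-181c, 0 passed at an unadjusted p, against 9.41% of all tested miRNAs. The list had 2 positive and 3 negative log2 fold changes, from -1.16 to 0.77 with a median of -0.55. miR-378a-3p, the most abundant of them, was at 122646, 97540 and 24238 CPM in C-exo, and the R-exo libraries were at 55712, 24363 and 29051 CPM, and C-exo 3 was the lowest of the 6 libraries, close to R-exo 2 (adjusted p = 0.47 in edgeR's test).

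Red cell miRNAs were examined because hemolysis adds miRNAs to plasma. Of 4, 2 were higher in R-exo at an unadjusted p under 0.05 and 0 after adjustment, namely miR-144-3p (log2 fold change 1.07) and miR-144-5p (1.63), both with an adjusted p of 0.46 in edgeR's test. Over all tested miRNAs 1.98% were higher in R-exo at a fold over 2 and this p, a share that changes with the scaling as given above. The most abundant of the list, miR-486, named after its values were seen, had the opposite sign, at 116723 ± 69675 CPM (SD, n = 3) in the C-exo and 55507 ± 13701 CPM (SD, n = 3) in the R-exo libraries (log2 fold change -1.07, unadjusted p = 0.052, adjusted p = 0.47 in edgeR's test). The summed level of the list was 69280 to 198092 CPM in C-exo, against 44540 to 74966 CPM in R-exo. The log2 ratio of miR-451-5p to miR-23a-3p, a common measure of hemolysis, was -0.36, -0.22 and 0.56 in C-exo 1, 2 and 3 and -0.79, 0.88 and -0.82 in R-exo 1, 2 and 3, and the groups overlapped. The part of red cell content in the levels of the miR-181 family was not tested.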

How the data were processed

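Small RNA libraries of 3 C-exo and 3 R-exo plasma exosome samples were sequenced on an Illumina HiSeq 2500. The authors deposited raw read counts per mature miRNA, without normalization and with a separate column for each library. The submitters' processing notes name bcl2fastq, BWA and the build rn6. Versions, the miRNA database and the rule for multi-mapping reads are not given in the sources used here, and the last could move reads between miR-181b-5p and miR-181d-5p or between miR-181a-5p and miR-181c-5p.

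Of 763 miRNAs, 598 had counts and 404 passed filterByExpr (minimum count 10, minimum total 15). TMM factors and the quasi-likelihood test of edgeR 4.0.16 (R 4.3.3) were used, with group as the single term, and p-values were adjusted by Benjamini-Hochberg over the 404. Depth was 5484209 to 7531737 counts per library, and the study's methods describe no molecular identifiers. The Poisson and Wilson intervals cover counting error only, whereas the edgeR intervals include the spread between libraries. A prior count of 2 was set for log2 CPM. For single values an exact two-sided permutation test was run, and scipy 1.17.1 gave the Poisson and Wilson intervals. Groups and replicate numbers came from the sample titles, and the age, sex and strain of the rats from the study's methods. Replicate numbers were not taken as pairs in the main fit. Same-numbered libraries deviated together with r of -0.28 to 0.33, above 0.1 in 2 of 3 pairs. Libraries of different groups and numbers had r of -0.50 to 0.42, so these values cannot decide whether the numbers mark pairs.

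Named miRNAs were the 4 members, their 3p arms, any miRNA with the same seed, the 3 miRNAs outside the family most correlated with each member, at most the 2 smallest p of each list, and miR-16-5p and miR-451-5p. Outside this rule, miR-486, miR-9a-5p and miR-9a-3p were named once their values were known, and Mir3570 for its place opposite Mir181a-1. Members and lists were chosen with earlier results of these data known. miR-23a-3p serves only in the hemolysis ratio. Alternatives were RLE, upper quartile and library size scaling, no filter, a minimum of 10 counts in every library, DESeq2 1.42.0, limma-voom (limma 3.58.1), a robust fit, each library left out and the replicate block. The same alternatives for the 3p arms were added after seeing the data. The fit was also run on simulated counts as a check of the code. Good recovery was required only at less spread than these data had, and the outcome is not reported here. Sequences and neighbouring genes came from RefSeq tables of GRCr8, in which all 4 members and 5 of the 6 3p arms were found. Figures used Python 3.11.15 and matplotlib 3.10.9.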

Additional observations from a re-analysis of the deposited data

How the results depend on the processing

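The fold changes of the 4 members were recomputed under each alternative, which gave 60 values. Of these, 52 kept the direction and the side of the threshold and 8 changed sign, none of them beyond 0.13 on the log2 scale, and the cause was not tested. miR-181a-5p was 0.086 with library size scaling and ranged from -0.18 to 0.12 with 1 library left out, the highest without C-exo 3. miR-181b-5p ranged from -0.0099 to 0.32. miR-181c-5p was -0.012 under upper quartile scaling and ranged from -0.13 to 0.38. miR-181d-5p kept its sign, at -0.85 to -0.095 with 1 library left out and -0.63 to -0.37 under the other alternatives. The a/b to c/d shift was -0.14 for miR-181a-5p against miR-181c-5p alone and ranged from -0.10 to 0.88 with 1 library left out. The number of pairwise ratios without overlap ranged from 0 to 2, with a to d and b to d without C-exo 3, a to b without C-exo 2 or R-exo 1, and c to d without R-exo 3. The count of 38 calls over the table was 63 without a filter and ranged from 15 to 182 with 1 library left out, with the 182 without C-exo 3. Higher calls in R-exo were 8 of 38, but 18 of 33 with library size scaling, 12 of 37 with RLE, 17 of 49 with DESeq2 and 27 of 49 with limma-voom. With the replicate block the fold changes were -0.066, 0.16, 0.071 and -0.43 for members a, b, c and d, the shift was 0.39, and there were 38 calls, 25 of them higher, and it changed no call of a member. Depth limits miR-181c-5p most, at 52 to 123 counts.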

Other observations

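Brain-enriched miRNAs were followed as a further list because members of the miR-181 family are also abundant in brain. Of 7, 6 passed the filter on low counts and 0 had an unadjusted p under 0.05 in edgeR's test, against 9.41% of the 404 tested miRNAs, with a median log2 fold change of -0.55 beside -0.046 over all tested miRNAs. Of the 6, 2 had a positive and 4 a negative log2 fold change. The positive ones, named after their values were seen, were both arms of the neuronal miR-9a, miR-9a-5p at 0.47 (adjusted p = 0.62) and miR-9a-3p at 0.89 (adjusted p = 0.51). miR-129-5p, a neuronal miRNA, was at 182, 96.8 and 35.6 CPM in C-exo 1, 2 and 3 and at 52.0, 53.7 and 43.0 CPM in R-exo 1, 2 and 3 (adjusted p = 0.48 in edgeR's test). C-exo 1 was its highest library and C-exo 3 its lowest. The list did not share this order, since miR-9a-5p was lowest in C-exo 1, at 20.8 CPM. miR-219a-5p, a miRNA of oligodendrocytes, had 9.19 CPM in C-exo 1 and under 4 CPM in the other libraries.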
